A study of Mus musculus with 20 samples.

Results

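Mammalian cells hold 7 genes that encode dedicated protein inhibitors of the cyclin-dependent kinases, and all 7 were measured here in mouse liver: Cdkn2a, Cdkn2b, Cdkn2c and Cdkn2d of the INK4 family and Cdkn1a, Cdkn1b and Cdkn1c of the CIP/KIP family. They were taken by name from 46603 gene identifiers in the deposited counts, and all 7 were among the 14661 genes with enough counts to test. The libraries are bulk poly(A) RNA from male mice aged 2 months, in 4 groups of 5. Wild-type (WT) mice were C57BL/6J bought from a vendor. Knockout (KO) mice, EedHepKO, carried Alb:Cre and loxP sites around exons 3 and 6 of Eed, with Cre under the albumin promoter, and per the labels they lack working EED in hepatocytes. Loss of Eed in single cell types, bile duct cells included, was not measured here. Each genotype was sampled at baseline, from the lobes taken out at partial hepatectomy (PHx), and again from the lobes left in place, at 30 h (1 mouse per genotype), 40 h (2 mice per genotype) or 48 h (also 2). Genotype cannot be told apart from colony of origin, nor the response to PHx from the lobe sampled.

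INK4 proteins bind CDK4 and CDK6 and keep cyclin D from activating them, which leaves the retinoblastoma protein unphosphorylated and E2F transcription factors held back. CIP/KIP proteins bind a wider set of complexes, chiefly cyclin E and cyclin A with CDK2. EED is a core subunit of polycomb repressive complex 2 (PRC2), which methylates histone H3 on lysine 27, and the Ink4a/Arf/Ink4b region is a textbook polycomb target in dividing and ageing cells. After PHx, hepatocytes that are normally quiescent enter the cell cycle, and Cdkn1a is known as a brake on that entry.

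Cdkn2a (ENSMUSG00000044303, mm10 chromosome 4, 89274471 to 89294653, minus strand) and Cdkn2b (ENSMUSG00000073802, chromosome 4, 89306299 to 89311039, minus strand) are neighbours. Cdkn2a has annotated transcript starts at 89294653 and 89282192. The distal start belongs to the transcript for Arf, which acts on MDM2 and so on p53, and the proximal one to the transcript for the kinase inhibitor Ink4a. Counts per gene add both together, so the 2 products are not separated here. Because polycomb complexes in mammals favour promoters rich in CG dinucleotides, the 250 bases before RefSeq's own start of each transcript are shown with each CG in capitals, beside those of Cdkn1b, which passed no test between groups. Windows matched 6 of the 7 members, all except Cdkn1c. All sequences are from RefSeq, build GRCm38.p6, written 5′ to 3′ on the gene's strand. For the distal start of Cdkn2a and for Cdkn2b, RefSeq's start lies downstream of the GENCODE start given here, so those stretches run past the GENCODE start.
Cdkn2a distal start (chr4:89294620-89294869, minus strand): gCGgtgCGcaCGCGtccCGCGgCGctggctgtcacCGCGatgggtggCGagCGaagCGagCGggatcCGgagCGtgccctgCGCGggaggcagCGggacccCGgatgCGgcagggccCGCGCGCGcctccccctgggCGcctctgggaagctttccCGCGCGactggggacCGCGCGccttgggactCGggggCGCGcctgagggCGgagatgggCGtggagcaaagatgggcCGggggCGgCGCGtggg
Cdkn2a proximal start (chr4:89282193-89282442, minus strand): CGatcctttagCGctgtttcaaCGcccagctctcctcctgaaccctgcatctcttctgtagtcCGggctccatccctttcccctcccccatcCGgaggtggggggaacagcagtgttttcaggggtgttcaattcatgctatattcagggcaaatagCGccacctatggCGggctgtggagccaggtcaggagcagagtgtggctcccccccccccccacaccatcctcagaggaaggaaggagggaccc
Cdkn2b (chr4:89311033-89311282, minus strand): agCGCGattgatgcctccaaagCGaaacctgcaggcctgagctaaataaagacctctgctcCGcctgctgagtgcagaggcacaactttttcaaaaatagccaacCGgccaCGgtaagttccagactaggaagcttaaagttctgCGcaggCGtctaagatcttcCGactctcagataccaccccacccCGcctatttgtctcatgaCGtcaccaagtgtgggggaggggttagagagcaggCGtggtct
Cdkn1b (chr6:134920151-134920400, plus strand): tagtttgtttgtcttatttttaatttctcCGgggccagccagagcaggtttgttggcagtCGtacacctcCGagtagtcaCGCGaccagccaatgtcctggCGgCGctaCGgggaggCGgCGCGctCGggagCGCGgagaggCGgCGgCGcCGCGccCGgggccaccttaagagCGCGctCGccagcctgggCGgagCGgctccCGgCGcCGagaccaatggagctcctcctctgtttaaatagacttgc

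In the printed stretches there were 40 CGs in the one for the distal start of Cdkn2a, 7 in that for its proximal start, 12 in that of Cdkn2b and 28 in that of Cdkn1b. Over windows of 300 bases (250 before and 50 after a start), 32851 RefSeq promoters had a median of 7 CGs. The distal Cdkn2a window held 45, more than 98.1% of those promoters, the proximal one 12 and the Cdkn2b window 18. Among members without a sequence printed, Cdkn2c had windows with 33 and 8 CGs, Cdkn2d 22, and Cdkn1a 2 and 23. The Cdkn1b window held 30. A search of both strands for the E2F-type letters TTTCCCGC found them in the distal Cdkn2a window, as in 1.07% of all promoters. The same search found TTTGAA, the cell cycle homology element, in the Cdkn2b window (17.9% of all) and the E-box CACGTG in the second Cdkn2c window (7.15% of all). TTTGGCGC (0.514% of all) and TTTCGCGC (0.323%) were in no window of these 6 members. These letters are a description of the sequence, and binding was not measured.

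Total counts ran from 21634890 to 30461351 per library, and levels are counts per 1000000 (CPM) of the library total scaled by the TMM method. Eed itself had 14.6 to 23.2 CPM in the 10 WT libraries and 2.75 to 7.52 CPM in the 10 KO libraries, with no overlap. Of 9 hepatocyte markers tested, 4 were lower in KO at baseline, and their summed level was 131960.8 to 151640.5 CPM in WT and 82038.4 to 109995.8 CPM in KO. Summed markers of stellate cells and fibroblasts were 169.4 to 277.2 CPM in WT and 454.8 to 634.7 CPM in KO at baseline, and those of macrophages 167.0 to 286.3 CPM in WT and 418.9 to 557.5 CPM in KO, neither with overlap. Of these lists, 7 of 10 stellate and 4 of 10 macrophage markers were higher in KO, and no marker of either was at 0. At baseline cholangiocyte markers summed to 35 to 81.3 CPM in WT and 92.3 to 407.9 CPM in KO (2 of 10 higher), and endothelial markers to 203.0 to 237.5 and 257.1 to 303.1 CPM (2 of 10 higher). Neutrophil markers summed to 1.19 to 2.15 CPM in WT and 3.71 to 11.4 CPM in KO (2 of 5 tested higher), with Ly6g at 0 in all 10 libraries, Mpo at 0 in WT and Elane at 0 in KO. Erythroid markers summed to 301.5 to 460.8 CPM in WT and 144.9 to 248.3 CPM in KO (1 of 6 tested lower). None of these 4 sums overlapped between genotypes on the TMM scale. Of all genes 11.1% were higher and 4.89% lower at baseline by the same test. TMM factors were 0.67 to 0.806 in WT and 0.983 to 1.19 in KO at baseline. Library size alone as the scaling brought the median log2 change of all genes from -0.03 to 0.45. It lowers the WT sums against the KO sums, and the hepatocyte and erythroid ranges of the genotypes then overlap. In bulk RNA a change in the number of cells of a type and a change in RNA per cell cannot be told apart, and the part of these markers in the results below was not tested.

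Comparing KO with WT at baseline asks what loss of Eed does to these genes in unoperated liver. Cdkn2a, Cdkn2b, Cdkn1a and Cdkn1c were higher in KO, Cdkn2c lay higher in every KO library without passing the test, and Cdkn2d and Cdkn1b overlapped between the genotypes. In all, 4 of 7 members were called higher and 0 lower (edgeR quasi-likelihood test, Benjamini-Hochberg adjusted p under 0.05), where 11.1% of all tested genes were called higher and 4.89% lower. The 5 KO libraries and the 5 WT libraries did not overlap for 5 of 7 members, against 27.9% of all genes. The median log2 change of the members was 2.35, and that of all genes -0.03.

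Cdkn2a was close to 0 in WT and at 5.16 CPM or more in every KO library. The 5 WT libraries at baseline had 0, 0.05, 0, 0.0459 and 0.0917 CPM, which is 4 reads in all. The 5 KO libraries had 9.89, 5.16, 8.21, 7.6 and 6.34 CPM, 976 reads in all. The log2 change was 7.37 (SE 0.78, edgeR adjusted p 3.1e-06).

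Cdkn2b, which encodes Ink4b, an inhibitor known as a target of TGF-beta signalling, had 0.065, 0.25, 0.309, 0.0917 and 0.413 CPM in WT replicates 1 to 5. In KO replicates 7, 8, 10, 11 and 12 it had 4.68, 2.03, 3.45, 2.53 and 2.11 CPM. The groups did not overlap, and the mean was 13.1 times higher in KO (log2 change 3.66, SE 0.74, edgeR adjusted p 0.00204).

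Cdkn1a (ENSMUSG00000023067, chromosome 17, 29090976 to 29100727, plus strand) encodes p21, the inhibitor best known as a target of p53. It had 1.37, 11, 22, 11.1 and 13.4 CPM in the WT libraries at baseline and 75.9, 60.0, 59.1, 74.8 and 54.0 CPM in KO. WT replicate 1 lay well under the other 4, and its title is the one that carries no mouse number. The lowest KO library was above the highest WT library, and the log2 change was 2.46 (SE 0.54, edgeR adjusted p 0.0042). An annotated gene on the opposite strand lies within Cdkn1a, and another within Cdkn1c. The strand setting of the counting is not given in the sources used here, so reads from both strands cannot be told apart.

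Cdkn1c (ENSMUSG00000037664, chromosome 7, 143458339 to 143461050, minus strand) encodes p57, an imprinted inhibitor expressed from the maternal allele. Its WT libraries had 0.975, 0.95, 0.72, 0.596 and 1.1 CPM, and its KO libraries 2.89, 2.24, 5.1, 4.61 and 7.37 CPM. Every KO library exceeded every WT library, with a 5.12-fold higher mean (log2 change 2.35, SE 0.57, edgeR adjusted p 0.00846).

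Cdkn2c (ENSMUSG00000028551, chromosome 4, 109660876 to 109667189, minus strand) encodes Ink4c. It had 2.99, 2.6, 3.96, 2.71 and 4.27 CPM in WT and 12.6, 9.3, 6.03, 9.01 and 8.36 CPM in KO at baseline. Although the groups did not overlap, its log2 change of 1.45 (SE 0.92) had an edgeR adjusted p of 0.301 when all 20 libraries shared the estimate of spread. Fitted on the 10 baseline libraries alone, the change was 1.48 with an edgeR adjusted p of 0.000252. Over the 10 libraries after PHx, Cdkn2c ran from 1.24 to 64.7 CPM.

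Cdkn2d (ENSMUSG00000096472, chromosome 9, 21288410 to 21291407, minus strand), which encodes Ink4d, had 1.55 ± 0.308 CPM (SD, n = 5) in WT and 2.12 ± 0.629 CPM (SD, n = 5) in KO at baseline. Cdkn1b (ENSMUSG00000003031, chromosome 6, 134920401 to 134925513, plus strand) encodes p27, an inhibitor held high in quiescent cells and controlled largely through degradation by SKP2. It had 21.9 ± 2.92 CPM (SD, n = 5) in WT and 20.5 ± 2.78 CPM (SD, n = 5) in KO. Neither passed the test, with log2 changes of 0.46 (SE 0.71, edgeR adjusted p 0.71) and -0.09 (SE 0.29, edgeR adjusted p 0.868). The plot of CPM by library shows all 7 genes on their own scales.

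**Figure D1:**
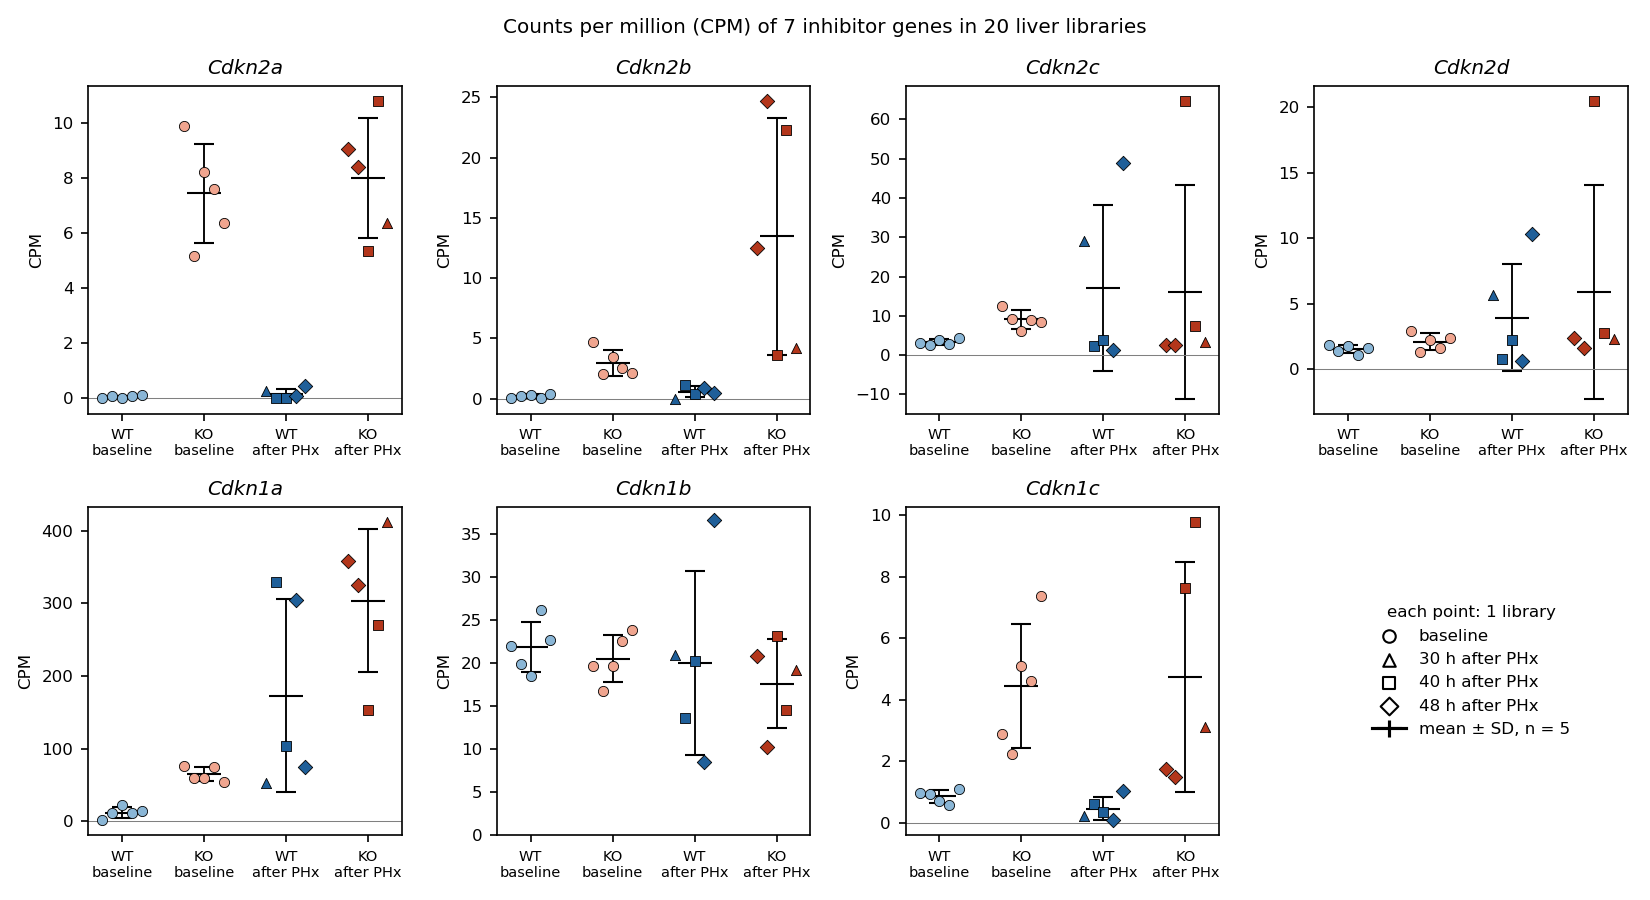
CPM of each inhibitor gene (vertical axis, 1 scale per gene) in the 20 libraries, by group; each point is 1 library, its shape gives the time after PHx, and bars are mean ± SD (n = 5). Cdkn2a separates the genotypes at both stages (0 to 0.412 CPM in WT, 5.16 to 10.8 CPM in KO), whereas Cdkn2c and Cdkn2d after PHx each have 1 KO library far above the other 4.

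After PHx, KO was compared with WT over 5 libraries each to see whether the genotypes still differ in regenerating liver. Cdkn2a, Cdkn2b and Cdkn1c were again higher in KO, and Cdkn1a was no longer called. Of 7 members, 3 were called higher and 0 lower, where 16% of all genes were called higher and 8.20% lower. The same 3 members had no overlap between groups, against 10% of all genes. The median log2 change was 0.81 for the members and -0.01 for all genes.

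Cdkn2a had 0.262, 0, 0, 0.0709 and 0.412 CPM in WT replicates 1 to 5 after PHx. KO replicates 7, 8, 10, 11 and 12 had 9.05, 8.41, 5.34, 10.8 and 6.34 CPM. Of the 20 WT reads, those in replicates 1 and 5 gave the highest WT values, still far under the lowest KO library, and the log2 change was 5.68 (SE 0.66, edgeR adjusted p 7.06e-06).

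Cdkn2b had 0, 1.09, 0.38, 0.922 and 0.481 CPM in WT after PHx and 12.5, 24.7, 3.66, 22.3 and 4.21 CPM in KO. All KO libraries were above all WT libraries, but they split widely, with replicates 7, 8 and 11 over 12 CPM and replicates 10 and 12 under 5 CPM. The mean was 23.5 times higher in KO (log2 change 4.54, SE 0.71, edgeR adjusted p 0.000147). Summed cholangiocyte markers were also highest in KO replicates 8, 7 and 11, at 868.0, 647.7 and 530.7 CPM, with 242.4 CPM in replicate 10 and 184.7 CPM in replicate 12. In WT after PHx that sum was 35.9 to 257.9 CPM. At this stage 7 of 10 cholangiocyte markers were higher in KO, where 16% of all genes were. None of the 10 was at 0 in either group, and the part of these cells in the Cdkn2b result was not tested.

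Cdkn1c had 0.218, 0.609, 0.342, 0.106 and 1.03 CPM in WT after PHx against 1.74, 1.49, 7.63, 9.76 and 3.12 CPM in KO. Within KO, the 2 libraries from 40 h were highest and the 2 from 48 h lowest. The log2 change over all times was 3.34 (SE 0.60, edgeR adjusted p 0.000482). Summed stellate and fibroblast markers also did not overlap at this stage, at 185.6 to 253.7 CPM in WT and 296.1 to 539.6 CPM in KO, with 5 of 10 called higher, 0 lower and none at 0. In the same comparison 2 of 10 endothelial markers (Flt4 and Cdh5) and 1 of 10 macrophage markers (Csf1r) were higher, and 2 of 9 hepatocyte markers (Serpina1a and Apoa1) and 2 of 6 erythroid markers (Hbb-bt and Alas2) tested were lower. Of all genes 16% were higher and 8.20% lower. The part of all these markers in the calls of Cdkn2a, Cdkn2b and Cdkn1c after PHx was not tested.

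Cdkn1a had 52.2, 329.7, 104.1, 304.7 and 74.7 CPM in WT after PHx and 358.5, 325.3, 153.8, 270.0 and 411.8 CPM in KO. WT replicates 2 and 4 lay within the KO range and the other 3 under it. The log2 change of 0.81 (SE 0.52) had an edgeR adjusted p of 0.264. Cdkn2c (-0.09, SE 0.88, edgeR adjusted p 0.955), Cdkn2d (0.58, SE 0.70, edgeR adjusted p 0.577) and Cdkn1b (-0.19, SE 0.29, edgeR adjusted p 0.671) did not pass either. The Cdkn2c value was -2.10 without KO replicate 10 (edgeR adjusted p 0.0407), 0.86 without WT replicate 5 (edgeR adjusted p 0.545), and 0.09 to 0.21, also not called, without WT replicate 1 or any 1 of the other 4 KO libraries.

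The response to PHx itself was taken within each genotype, after PHx against baseline. In WT, Cdkn1a alone of the 7 was called, as higher (1 of 7 higher, 0 lower), where 11.4% of all genes were called higher and 8.68% lower. In KO, Cdkn1a and Cdkn2b were called higher (2 of 7, 0 lower), where 17.5% of all genes were called higher and 12.1% lower. Cdkn1a was also the 1 member without overlap between stages, in either genotype, against 17.8% of all genes in WT and 13.9% in KO. Median log2 changes of the members were 1.35 in WT and 0.83 in KO, with 0.04 and 0.10 for all genes.

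In WT the mean of Cdkn1a was 11.8 ± 7.35 CPM before and 173.1 ± 133.1 CPM after PHx (SD, n = 5 each), and it rose by 3.87 on the log2 scale (SE 0.58, edgeR adjusted p 0.000205). In KO the means were 64.8 ± 9.93 and 303.9 ± 98.4 CPM (SD, n = 5 each), a rise of 2.23 (SE 0.54, edgeR adjusted p 0.00577). Of cell type markers in WT, 4 of 5 tested neutrophil markers were called higher after PHx, 1 of 10 cholangiocyte markers higher, 2 of 10 macrophage markers higher and 1 lower, and 3 of 4 lymphocyte, 2 of 9 hepatocyte, 2 of 10 endothelial and 1 of 6 erythroid markers tested lower. Summed neutrophil markers were 3.44, 24.2, 48.6, 26.7 and 1.96 CPM in WT replicates 1 to 5 after PHx, lowest in replicates 1 and 5, where Cdkn1a was lowest too. Replicate 3 had the highest sum but 104.1 CPM of Cdkn1a, under the 329.7 and 304.7 CPM of replicates 2 and 4. In KO replicates 7, 8, 10, 11 and 12 the sum was 72.6, 24.9, 6.71, 4.42 and 13.4 CPM. Cdkn1a was highest in KO replicate 12, at 411.8 CPM, and stood at 358.5 CPM in replicate 7. In KO 1 of 5 neutrophil markers tested was called higher, as were 6 of 10 cholangiocyte markers. Of 10 macrophage markers 1 was higher and 4 lower in KO, and of 10 endothelial markers 1 was higher and 2 lower. Lower too were 2 of 9 hepatocyte, 2 of 10 stellate, 3 of 4 lymphocyte and 1 of 6 erythroid markers tested. The shares of all genes are those given for each response, and the part of these markers in the response was not tested. Mice that carry a number in both titles can be followed singly. In them Cdkn1a was higher after PHx in 4 of 4 WT mice, by 2.22 to 4.84 on the scale of log2(CPM + 0.5), and in 5 of 5 KO mice, by 1.37 to 2.92.

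Cdkn2b in KO stood at 2.96 ± 1.11 CPM before and 13.5 ± 9.85 CPM after PHx (SD, n = 5 each). The groups overlapped, and the rise was 2.18 on the log2 scale (SE 0.63, edgeR adjusted p 0.0158). In the same comparison 17.5% of all genes were called higher and 12.1% lower. Of 10 cholangiocyte markers 6 were called higher and 0 lower, and their sum was 92.3 to 407.9 CPM before and 184.7 to 868.0 CPM after PHx. Of 10 macrophage markers 1 was higher and 4 lower (418.9 to 557.5 and 82 to 380.2 CPM), and of 4 lymphocyte markers tested 3 were lower. No marker of these lists was at 0 in all libraries of a group, and their part in the Cdkn2b response was not tested. All 5 KO mice were higher after PHx, by 0.08 in mouse 10 to 3.32 in mouse 8 on the scale of log2(CPM + 0.5). Without KO replicate 8 after PHx the log2 change was 1.82 and the edgeR adjusted p 0.0533. In WT Cdkn2b had 0.226 ± 0.147 CPM before and 0.574 ± 0.436 CPM after PHx (SD, n = 5 each), with 4 of 4 mice higher and no call (log2 change 1.31, SE 0.74, edgeR adjusted p 0.221).

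Cdkn2a in KO stood at 7.44 ± 1.81 CPM before and 7.99 ± 2.17 CPM after PHx (SD, n = 5 each). Mice 7, 8, 10, 11 and 12 differed by -0.12, 0.66, -0.58, 0.48 and 0.00 on the scale of log2(CPM + 0.5). Its log2 change was 0.10 (SE 0.51, edgeR adjusted p 0.893), and in WT 1.80 (SE 0.87, edgeR adjusted p 0.149) on 4 and 20 reads. Cdkn1c had values of -0.85 to -0.07 on the scale of log2(CPM + 0.5) in 4 of 4 WT mice, without a call (log2 change -0.90, SE 0.58, edgeR adjusted p 0.292). The other members gave edgeR adjusted p of 0.081 (Cdkn2c), 0.194 (Cdkn2d) and 0.8 (Cdkn1b) in WT, and 0.494, 0.119 and 0.568 in KO. DESeq2 called Cdkn2c higher in WT (2.41, adjusted p 0.0191). It was also called with library size alone (2.80, edgeR adjusted p 0.0333) and without WT replicate 4 after PHx (2.74, edgeR adjusted p 0.0498). With 1 library left out its WT change ran from 1.51 to 2.74, against 2.37 in the main fit.

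**Figure D2:**
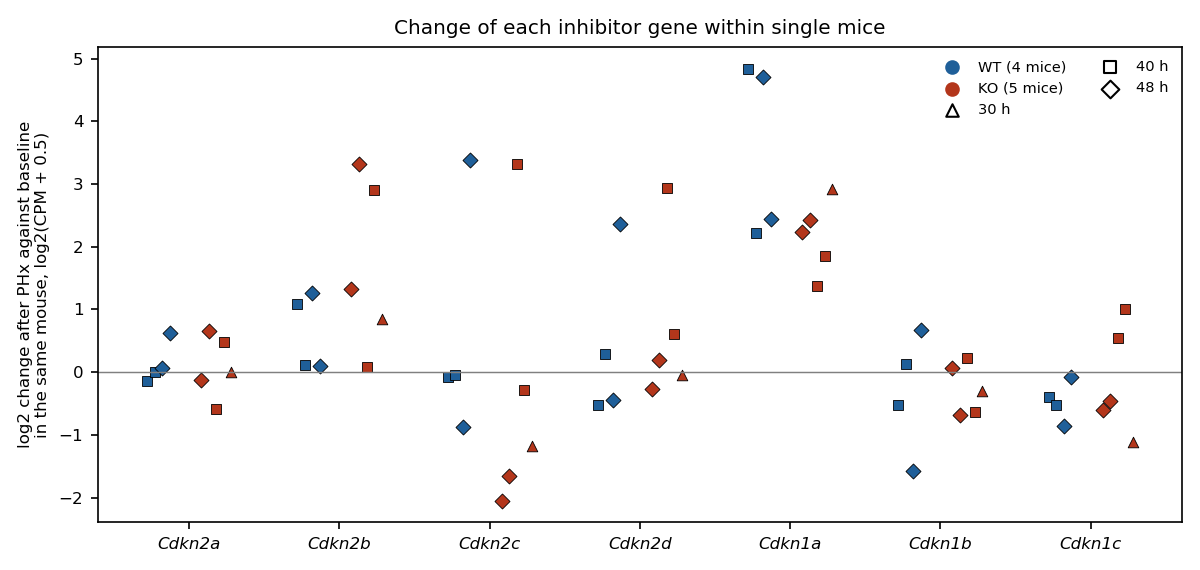
Log2 change of each inhibitor gene from baseline to after PHx in the same mouse, on the scale of log2(CPM + 0.5) (vertical axis), for 4 WT and 5 KO mice; each point is 1 mouse and its shape the time after PHx. Cdkn1a is above 0 in all 9 mice, and Cdkn2c is above 0 in 1 mouse of each genotype (3.38 in WT, 3.32 in KO).

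Whether the response to PHx differed between genotypes was tested as the difference of the 2 responses. None of the 7 members was called in it by edgeR, where 0.164% of all genes were called higher and 0.225% lower, and DESeq2 and limma-voom called none of the 7 either. Cdkn1a was the 1 member with an unadjusted p under 0.05. Its difference, KO minus WT, was -1.64 (SE 0.73, unadjusted p 0.0362, edgeR adjusted p 0.337). For the other 6 the edgeR adjusted p was 0.475 or more, with SEs of 0.40 to 1.27 on the log2 scale. The same data seen as levels put Cdkn1a 5.5 times higher in KO at baseline and 1.76 times higher after PHx.

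**Figure D3:**
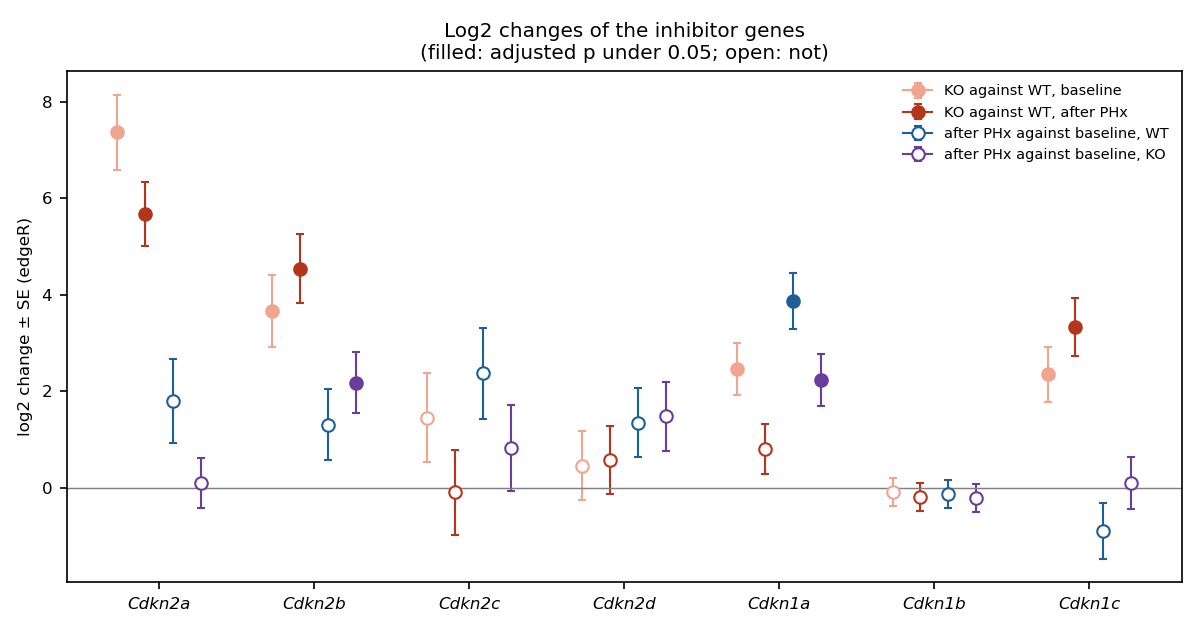
Log2 change with SE (vertical axis) of each inhibitor gene in 4 comparisons; filled points passed the edgeR adjusted p of 0.05 and open points did not. Cdkn2a is highest in the comparisons of KO with WT (7.37 at baseline, 5.68 after PHx), and Cdkn1a in WT after PHx against baseline (3.87).

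The mice sampled after PHx were not all at the same time, so genotypes were also compared at 40 h and at 48 h, with 2 libraries each. At 40 h, Cdkn2a, Cdkn2b, Cdkn2c and Cdkn1c were called higher in KO (4 of 7, 0 lower), where 8.61% of all genes were higher and 4.68% lower. At 48 h, Cdkn2a and Cdkn2b were called higher and Cdkn2c lower, where 13.7% of all genes were higher and 10.7% lower. These calls lean on the spread estimated from all 20 libraries. With the 4 libraries of a time alone in the fit, 40 genes in all were called at 40 h, of which Cdkn2a is the 1 member, and no gene was called at 48 h.

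Other lists moved in the same comparisons. At 40 h 13 of 20 S phase genes were called higher in KO and 0 of 20 G2 and M genes, and at 48 h 3 S phase and 7 G2 and M genes were lower. Median log2 changes at 40 h were 2.60 for the S phase genes and 3.86 for the G2 and M genes. At 48 h they were -1.19 and -4.74, and for all genes 0.04 at 40 h and -0.02 at 48 h. Summed G2 and M genes at 40 h were 5.22 and 81.9 CPM in WT and 1094.8 and 143.6 CPM in KO. Of 9 hepatocyte markers tested 3 were lower at 40 h and 4 at 48 h, and of 10 stellate and fibroblast markers 2 and 1 were higher. Of 10 endothelial markers 1 was higher at 40 h, and 2 higher and 1 lower at 48 h. Erythroid markers had 1 of 6 tested lower at each time, and neutrophil markers 1 of 5 lower at 40 h. The shares of all genes are those given for each time, and the part of these genes in the calls by time was not tested.

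Cdkn2a had no read in either WT library at 40 h and 528 in the 2 KO libraries, at least 139.4-fold higher against a floor of 3 reads over both WT libraries (edgeR adjusted p 0.000194). At 48 h it had 14 reads in WT and 685 in KO (log2 change 5.14, SE 0.71, edgeR adjusted p 0.000298). That log2 change ran from 4.28 to 6.77 with 1 library left out. Cdkn2b had 0.71 CPM in WT and 14.5 CPM in KO over the pooled reads at 40 h, and 0.698 and 19.5 CPM at 48 h, with log2 changes of 4.15 (edgeR adjusted p 0.00667) and 4.72 (edgeR adjusted p 0.00157). Without KO replicate 11 the 40 h value was 2.32 (edgeR adjusted p 0.089). Of 10 cholangiocyte markers 5 were called higher in KO at 40 h and 7 at 48 h, with 0 lower, against the shares of all genes given for each time. Their sum at 40 h was 242.4 and 530.7 CPM in KO, highest in replicate 11, and up to 257.9 CPM in WT, so that the groups overlapped, and at 48 h 125.8 and 49.7 CPM in WT and 647.7 and 868.0 CPM in KO. The part of these markers in the Cdkn2b calls by time was not tested. At 30 h, with 1 library per genotype and no test, Cdkn2a had 6 reads in WT and 134 in KO, and Cdkn2b 0 and 89.

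Cdkn1c was 19 times higher in KO over the pooled reads at 40 h (log2 change 4.19, SE 0.77, edgeR adjusted p 0.0038) and 2.77 times higher at 48 h (log2 change 1.49, SE 0.70, edgeR adjusted p 0.131). With 1 library left out the 48 h value ran from 0.53 to 3.78, the highest being that without WT replicate 5. Between genotypes Cdkn1a differed by -0.03 on the log2 scale (SE 0.77, edgeR adjusted p 0.983) at 40 h and by 0.85 (SE 0.77, edgeR adjusted p 0.445) at 48 h. The 48 h value of Cdkn1a was 0.09 without WT replicate 5 (edgeR adjusted p 0.959) and 2.08 without WT replicate 4 (edgeR adjusted p 0.0993). At 30 h it had 52.2 CPM in the WT library and 411.8 CPM in the KO library.

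Cdkn2c had opposite signs at the 2 times, and each value turned on 1 library. At 40 h the log2 change was 3.52 (SE 1.08, edgeR adjusted p 0.0426), and 1.22 (edgeR adjusted p 0.442) without KO replicate 10. At 48 h it was -3.26 (SE 1.07, edgeR adjusted p 0.0364), and 1.00 without WT replicate 5. The call at 40 h was also lost without WT replicate 2 (3.24, edgeR adjusted p 0.256) or WT replicate 3 (3.88, edgeR adjusted p 0.0919), and that at 48 h without KO replicate 7 (-3.32, edgeR adjusted p 0.144) or KO replicate 8 (-3.33, edgeR adjusted p 0.135). In limma-voom neither Cdkn2c value was called, without a replicate block (2.76, adjusted p 0.185, and -1.60, adjusted p 0.415) or with mouse as a random one (2.75, adjusted p 0.188, and -1.58, adjusted p 0.42). Cdkn2d had 2.91 (SE 0.96, edgeR adjusted p 0.0541) at 40 h, and was called there by DESeq2 (2.93, adjusted p 0.0096), with no filter beyond 1 count (2.95, edgeR adjusted p 0.0148) and with library size alone (3.25, edgeR adjusted p 0.0277). Without KO replicate 10 the 40 h value of Cdkn2d was 0.86 (edgeR adjusted p 0.563). It was -1.46 (SE 0.91, edgeR adjusted p 0.251) at 48 h. Without WT replicate 4, Cdkn2d (-2.48, edgeR adjusted p 0.0253) and Cdkn1b (-1.35, edgeR adjusted p 0.0146) were called lower at 48 h, and without KO replicate 11 Cdkn2d was called higher at 40 h (3.74, edgeR adjusted p 0.039).

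The libraries that carried high Cdkn2c and Cdkn2d were those with high expression of mitotic genes. WT replicates 1 to 5 after PHx had 29, 2.44, 3.8, 1.24 and 49.0 CPM of Cdkn2c, and 5.67, 0.826, 2.24, 0.674 and 10.3 CPM of Cdkn2d. The summed level of 20 genes of the G2 and M phases in the same libraries was 437.2, 5.22, 81.9, 3.01 and 2122.9 CPM. Replicates 1 (30 h) and 5 (48 h) were high in all 3 quantities, and replicate 4 was lowest in all 3. The summed S phase genes of these libraries, 1776.8, 132.3, 217.3, 174.7 and 644.1 CPM, were also highest in replicates 1 and 5, but lowest in replicate 2.

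In KO after PHx, replicates 7, 8, 10, 11 and 12 had 2.67, 2.59, 64.7, 7.31 and 3.41 CPM of Cdkn2c, and 2.37, 1.63, 20.5, 2.81 and 2.32 CPM of Cdkn2d. Their summed G2 and M genes were 21.5, 50.6, 1094.8, 143.6 and 17.8 CPM. Replicate 10, from 40 h, stood apart in all 3, with replicate 11, also from 40 h, next. Mki67, a marker of cycling cells, was highest in the same libraries, at 82.3 CPM in WT replicate 1, 327.9 CPM in WT replicate 5 and 118.5 CPM in KO replicate 10.

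Cdkn1a ran the other way after PHx. In KO it was lowest in replicate 10 (153.8 CPM) and next lowest in replicate 11 (270.0 CPM), which had the highest and second highest G2 and M sums, S phase sums (1461.3 and 510.4 CPM, over 20 genes) and Mki67 (118.5 and 25.3 CPM). In replicates 12, 7 and 8 Cdkn1a stood at 411.8, 358.5 and 325.3 CPM. Their order ran against that of the G2 and M sums but not against that of the S phase sums (328.3, 277.6 and 286.8 CPM) or of Mki67 (3.65, 3.42 and 8.17 CPM). In WT, replicates 2 and 4, with 5.22 and 3.01 CPM of those genes, had 329.7 and 304.7 CPM of Cdkn1a, and replicates 1, 3 and 5, with 437.2, 81.9 and 2122.9 CPM, had 52.2, 104.1 and 74.7 CPM. At baseline the summed G2 and M genes were 5.83 to 11.4 CPM in WT and 41.5 to 227.5 CPM in KO, where Cdkn1a was higher as well. With 5 libraries per group these orders are given as a description. Whether time, lobe or the state of single mice sets them was not tested.

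**Figure D4:**
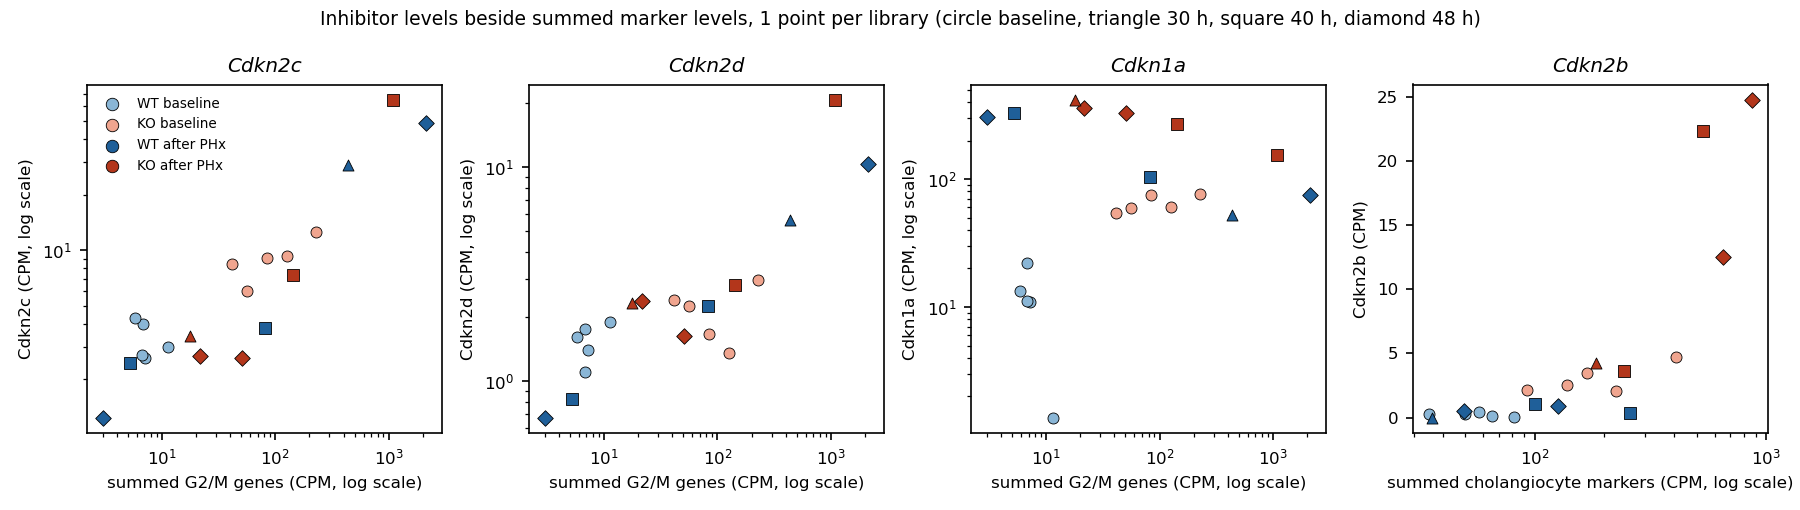
Levels of Cdkn2c, Cdkn2d and Cdkn1a against the summed level of 20 genes of the G2 and M phases (both axes CPM, log scales) and of Cdkn2b (CPM) against summed cholangiocyte markers (CPM, log scale); each point is 1 library, coloured by group and shaped by time after PHx. Cdkn2c and Cdkn2d are highest in the 3 libraries with the highest G2 and M sums (437.2, 1094.8 and 2122.9 CPM), while Cdkn1a in the KO libraries after PHx runs from 411.8 down to 153.8 CPM along the same axis.

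Dividing by exon length makes levels comparable between genes, as CPM per kb of merged exons. In WT at baseline the order was Cdkn1b (4.8 ± 0.642), Cdkn1a (3.32 ± 2.07), Cdkn2c (1.23 ± 0.283), Cdkn2d (0.984 ± 0.196), Cdkn1c (0.426 ± 0.101), Cdkn2b (0.162 ± 0.106) and Cdkn2a (0.032 ± 0.033; SD, n = 5). With the longest transcript as the length in place of merged exons, Cdkn1a came before Cdkn1b. With merged exons, only Cdkn2d and Cdkn1c were neighbours in that order whose libraries did not overlap. In KO at baseline Cdkn1a led with 18.2 ± 2.8, above all libraries of Cdkn2a (6.35 ± 1.54), which came next, followed by Cdkn1b (4.51 ± 0.61), Cdkn2c (3.37 ± 0.875), Cdkn1c (2.18 ± 0.99), Cdkn2b (2.13 ± 0.801) and Cdkn2d (1.35 ± 0.4), each overlapping its neighbour. Thus the gene at the foot of the WT order held the second place in KO.

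After PHx Cdkn1a led in both genotypes, with 48.7 ± 37.5 CPM per kb in WT and 85.5 ± 27.7 in KO (SD, n = 5). Its lowest KO library, at 43.3, was above the highest library of the next gene, Cdkn2b (9.7 ± 7.09), while in WT the libraries of Cdkn1a and Cdkn2c (6.37 ± 7.91) overlapped. Summed over the INK4 genes, the level per kb was 2.41 ± 0.489 in WT and 13.2 ± 3.11 in KO at baseline, and 9.42 ± 10.5 and 26.3 ± 12.4 after PHx. Summed over the CIP/KIP genes, it was 8.54 ± 1.85 and 24.9 ± 2.72 at baseline, and 53.3 ± 35.7 and 91.7 ± 26.2 after PHx. As a share of all 7 genes, Cdkn1b made up 45.4% ± 11.3 (SD, n = 5) in WT and 12% ± 1.85 in KO at baseline, at 21.9 and 20.5 CPM, and Cdkn2a made up 0.284% ± 0.279 and 16.5% ± 2.26.

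**Figure D5:**
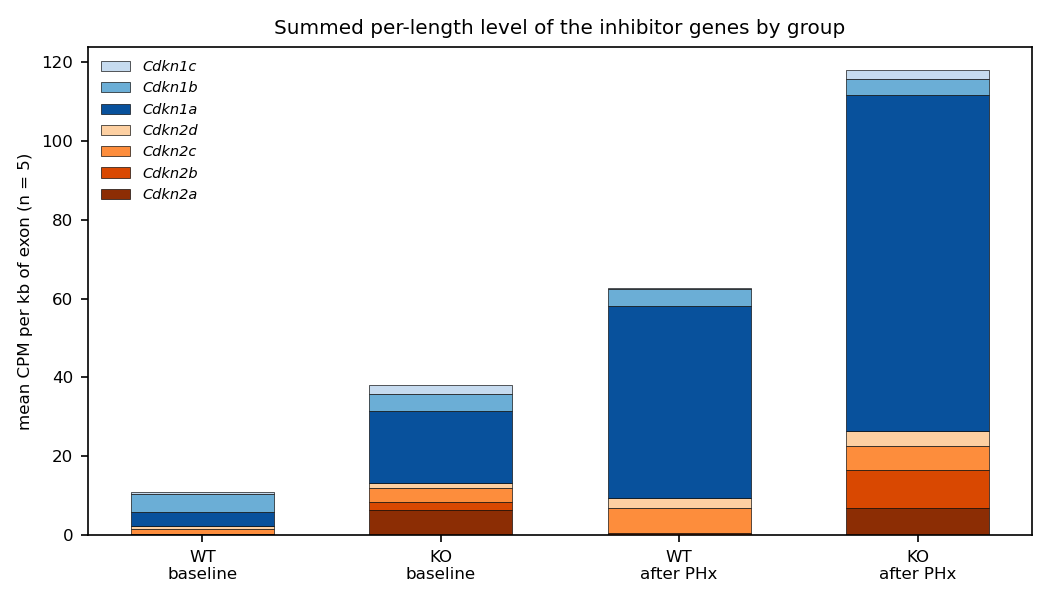
Mean level of the 7 inhibitor genes in CPM per kb of exon, stacked by gene (vertical axis, linear), in the 4 groups (n = 5 libraries each). Cdkn1a makes up the largest segment except in WT at baseline, where Cdkn1b does (4.8 against 3.32; with the longest transcript as the length Cdkn1a ranks first there too), and the Cdkn2a segment is visible in KO at both stages (6.35 and 6.81).

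The kinases and cyclins that these inhibitors act on were described from fixed lists. Of 9 G1 kinases and cyclins, 2 were higher in KO at baseline and 0 lower, where 11.1% of all genes were higher and 4.89% lower. Ccnd1, the cyclin D that partners CDK4, rose from 22.9 ± 4.5 to 215.9 ± 80 CPM (SD, n = 5 each; log2 change 3.23, SE 0.77, edgeR adjusted p 0.00701), and Ccnd2 from 8.54 ± 0.642 to 26.4 ± 6.21 CPM (edgeR adjusted p 0.0227, lost without WT replicate 5 or KO replicate 11). Cdk4 (log2 change 0.03, SE 0.19) and Cdk6 (0.42, SE 0.20) were not called. After PHx Ccnd2 and Cdc25a, the phosphatase that activates CDK2, were the 2 called higher in KO, where 16% of all genes were. In WT after PHx against baseline 4 of the 9 were higher (11.4% of all genes) and in KO 3 (17.5% of all genes). With mouse as a replicate block 3 of the 4 WT calls were lost, Ccnd1 (1.19, edgeR adjusted p 0.416), Ccne2 (1.43, edgeR adjusted p 0.281) and Cdk6 (0.41, edgeR adjusted p 0.176), and in KO Ccne2 was lost with 10 mice in the block (2.41, edgeR adjusted p 0.0575). The KO call of Ccne2 was also lost with any 1 of 6 of the 10 KO libraries left out, baseline replicates 8, 10, 11 and 12 and replicates 10 and 11 after PHx (1.86 to 2.54, highest edgeR adjusted p 0.0832). Ccne1, the cyclin E that activates CDK2, went from 0.371 ± 0.204 to 11.1 ± 12.8 CPM in WT (edgeR adjusted p 9.55e-05) and from 0.795 ± 0.328 to 21.5 ± 12.8 CPM in KO (edgeR adjusted p 0.000259).

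Of 8 kinases and cyclins of S phase and mitosis, Ccnb1 and Ccna2 were called higher in KO at baseline (edgeR adjusted p 0.0474 and 0.038), against 11.1% of all genes. The Ccnb1 call was lost with any 1 of the 10 libraries left out, and the Ccna2 call with any except KO replicate 12, and limma-voom called neither (adjusted p 0.175 and 0.209). In WT after PHx 6 of the 8 were higher, including Cdk1 (5.58, SE 1.37, edgeR adjusted p 0.00826), and in KO 0, against 11.4% and 17.5% of all genes. With mouse as a replicate block over 9 mice none of these 6 WT calls held, with edgeR adjusted p from 0.119 (Ccnb1) to 0.358 (Ccnb2), and the Cdk1 value was 2.31 (edgeR adjusted p 0.353). limma-voom called none of the 6 either. With 10 mice in the block the call of Ccnb1 held, and those of the other genes did not. Of 13 genes of the retinoblastoma and E2F families, Rb1 and E2f1 were not called in any of the 4 comparisons, and 0 were higher and 1, Rbl2, was lower in KO at baseline, where 11.1% of all genes were higher and 4.89% lower. Its log2 change was -0.47 (SE 0.16, edgeR adjusted p 0.0458), a value that was 0.01 when scaled by library size alone and whose call was lost with any 1 of 8 of the 10 libraries left out. None of the 13 was called in KO against WT after PHx. In the WT response Rbl1, E2f3 and Tfdp1 were higher and Rbl2 lower (11.4% and 8.68% of all genes), and in the KO response E2f7 and E2f3 were higher (17.5% of all genes). With mouse as a replicate block over 9 mice, E2f3 in KO and Rbl2 in WT held, while Rbl1 (0.76, edgeR adjusted p 0.647), E2f3 (0.80, edgeR adjusted p 0.111) and Tfdp1 (0.58, edgeR adjusted p 0.185) in WT and E2f7 (2.13, edgeR adjusted p 0.129) in KO were not called. With 10 mice in the block E2f3 in WT was called. The Rbl2 value in WT was not called when scaled by library size alone (-0.42, edgeR adjusted p 0.128), the WT calls of Rbl1 and Tfdp1 were lost with any 1 of 7 and of 4 of the 10 WT libraries left out, and E2f7 in KO was not called without replicate 10 after PHx (1.66, edgeR adjusted p 0.0894).

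Among 23 known regulators of the inhibitor genes or proteins, 5 were higher and 0 lower in KO at baseline, and 5 higher and 1 lower after PHx. Of all genes 11.1% were higher and 4.89% lower at baseline, and 16% and 8.20% after PHx. Besides those described here, Myc and Id1 were called higher at baseline, and the Myc call was lost in limma-voom (adjusted p 0.0915) and without WT replicates 1, 3 or 5 or KO replicate 11. Tbx2, a repressor of Cdkn2a and Cdkn1a, went from 2.06 ± 0.411 to 7.28 ± 1.82 CPM at baseline (edgeR adjusted p 0.000424). Ets2, an activator of Ink4a transcription, went from 23.5 ± 5.96 to 59.9 ± 14.4 CPM (edgeR adjusted p 0.00947), and Bmi1, a polycomb repressor of the Cdkn2a region, from 21.5 ± 2.9 to 35.5 ± 5.12 CPM (SD, n = 5 each; edgeR adjusted p 0.0183). The Bmi1 call was lost without WT replicate 1 (0.65, edgeR adjusted p 0.0528). Cbx7 (0.00, SE 0.37), another polycomb gene, and Skp2 (-0.35, SE 0.72) passed no test between genotypes at baseline.

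Trp53, the gene of p53, was not called in KO against WT at baseline (0.20, SE 0.40, edgeR adjusted p 0.776) or after PHx (-0.53, SE 0.40, edgeR adjusted p 0.354). At 48 h it was called lower in KO (-1.69, SE 0.34, edgeR adjusted p 0.00294), also with each library left out (-2.49 to -1.24), but not with only the 4 libraries of that time in the fit (-1.73, edgeR adjusted p 0.17). At 40 h the Trp53 value was 0.88 (SE 0.33, edgeR adjusted p 0.0874), called by DESeq2 (0.90, adjusted p 0.0473), with library size alone (1.38, edgeR adjusted p 0.0251) and without WT replicate 3 (1.34, edgeR adjusted p 0.0402). Of 19 genes of the p53 axis other than Cdkn1a, 4 were higher and 0 lower in KO at baseline, and 9 higher and 2 lower (Plk3 and Mdm4) after PHx, against the same shares of all genes. In the WT response 6 of the 19 were higher and 2, Gadd45a and Bbc3, lower (11.4% and 8.68% of all genes). In the KO response 9 were higher and 1, Plk3, lower (17.5% and 12.1% of all genes). The 4 at baseline were Pmaip1 (not called by limma-voom, adjusted p 0.0937), Eda2r, Phlda3 and Zmat3. Phlda3, an inhibitor of AKT and p53 target, went from 0.529 ± 0.418 to 6.71 ± 2.29 CPM at baseline (edgeR adjusted p 0.000429) and differed by 3.60 on the log2 scale after PHx (edgeR adjusted p 0.000176). Eda2r, a death receptor gene, went from 0.34 ± 0.215 to 4.62 ± 2.38 CPM at baseline (SD, n = 5 each; edgeR adjusted p 0.000146). Mdm2, the p53 ubiquitin ligase and target, had log2 changes of 0.14 (SE 0.14) and 0.10 (SE 0.14) between genotypes, and rose after PHx by 0.77 in WT (edgeR adjusted p 0.00123) and 0.73 in KO (edgeR adjusted p 0.0019).

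Genes within 500 kb of each member were counted to see whether neighbours moved too. Near Cdkn2a and Cdkn2b, 4 genes were tested, and Dmrta1, a DM-domain gene 385 kb from Cdkn2a, was the 1 besides the pair itself that was called higher in KO. The 4 tested around each member count the other of the pair, so 2 of 4 were higher and 0 lower at both stages, where 11.1% of all genes were higher at baseline and 16% after PHx. Dmrta1 had 0.109 and 1.2 CPM in WT and KO at baseline (log2 change 3.38, SE 0.69, edgeR adjusted p 0.00231) and 0.144 and 2.97 CPM after PHx (4.30, SE 0.68, edgeR adjusted p 0.000143). Mtap, the metabolic gene 93.4 kb from Cdkn2a on the other side, had 26.9 and 25.4 CPM at baseline and was not called (-0.08, SE 0.17, edgeR adjusted p 0.78).

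Of 18 tested genes near Cdkn1a, 2 were higher and 0 lower in KO at baseline, a share equal to the 11.1% of all genes called higher. After PHx 4 of the 18 were higher and 1 lower, where 16% of all genes were higher and 8.20% lower. Trp53cor1, a p53-induced long noncoding RNA gene 11.8 kb away, had 0.0322 and 0.292 CPM in WT and KO at baseline (3.05, SE 0.99, edgeR adjusted p 0.0411) and 0.0227 and 0.363 CPM after PHx (3.76, SE 0.96, edgeR adjusted p 0.00734). Its baseline call was lost without any 1 of 9 of the 10 libraries (lowest 2.74, highest 3.36). Pi16 had 0.0103 and 0.207 CPM (edgeR adjusted p 0.014). Its WT level is near the floor of counting, and its log2 change ran from 3.44 to 5.5 with 1 library left out, called each time. Around Cdkn1c 16 genes were tested and 0 called in KO against WT at baseline. After PHx 4 were higher and 2 lower in KO, where 16% of all genes were higher and 8.20% lower. Chosen after their values were seen, examples are the imprinted neighbour Phlda2 (0.483 and 4.11 CPM, 3.07, SE 0.81, edgeR adjusted p 0.00874) and Kcnq1ot1, the noncoding RNA that silences Cdkn1c on the paternal allele (4.95 and 2.06 CPM, -1.27, SE 0.32, edgeR adjusted p 0.0077). Kcnq1ot1 lies within Kcnq1 on the other strand, so its reads cannot be told apart from those of Kcnq1, and its value had an edgeR adjusted p of 0.0617 with only the 10 libraries after PHx in the fit.

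Near Cdkn1b, which was not called itself, 4 of 16 tested genes were higher and 0 lower in KO at baseline, and 5 were higher and 1 lower after PHx, against 11.1% and 4.89% of all genes at baseline and 16% and 8.20% after PHx. At baseline the 4 were Emp1 (1.43 and 8 CPM in WT and KO, 2.48, SE 0.47, edgeR adjusted p 0.00123), Bcl2l14, Mansc1 and Gprc5a (edgeR adjusted p 0.0119, 0.0187 and 0.0188). limma-voom did not call the last 3 (adjusted p 0.1, 0.13 and 0.0931), and the Gprc5a call was lost without WT replicate 4 (2.77, edgeR adjusted p 0.0504). Near Cdkn2c, 1 of 8 tested genes was higher at baseline, Dmrta2 (0 and 1.68 CPM), and 1 lower, Osbpl9 (-0.58, SE 0.14, edgeR adjusted p 0.01; -0.08 when scaled by library size alone). Near Cdkn2d, 2 of 31 were higher, Icam1 (5.97 and 22.4 CPM, edgeR adjusted p 0.00185) and AB124611 (0.924 and 3.66 CPM, edgeR adjusted p 0.00396), and 0 lower. After PHx 1 of 8 was higher and 1 lower near Cdkn2c, and 2 of 31 higher and 3 lower near Cdkn2d, against the shares of all genes given for that stage. In the WT response, where 11.4% of all genes were higher and 8.68% lower, neighbours called higher and lower were 0 and 0 of 4 around each of Cdkn2a and Cdkn2b, 1 and 0 of 8 near Cdkn2c, 5 and 2 of 31 near Cdkn2d, 3 and 1 of 18 near Cdkn1a, 4 and 1 of 16 near Cdkn1b and 2 and 0 of 16 near Cdkn1c. In the KO response, where 17.5% were higher and 12.1% lower, they were 1 and 0 of 4 around Cdkn2a (Cdkn2b itself), 0 and 0 of 4 around Cdkn2b, 1 and 1 of 8 near Cdkn2c, 8 and 5 of 31 near Cdkn2d, 5 and 2 of 18 near Cdkn1a, 6 and 2 of 16 near Cdkn1b and 5 and 2 of 16 near Cdkn1c.

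For each member with a call, the 3 genes with the most similar profile over the 20 libraries were found, by the root mean square difference of centred log2(CPM + 0.5) among genes with a mean of at least 1 CPM. For Cdkn2a they were Igf1r (0.42), Plxdc2 (0.43) and Hoxa13 (0.44), against a spread of Cdkn2a around its own mean of 1.92. Hoxa13 had no read in any WT library and 5.64 and 6.47 CPM in KO at baseline and after PHx. For Cdkn2b they were Adgrg1 (0.45), Il17rd (0.45) and F2rl1 (0.47), against 1.68. Cdkn2c was closest to Ska1 (0.36), a spindle gene, Mxd3 (0.46) and Lockd (0.48), a noncoding RNA gene 3.58 kb from Cdkn1b, against 1.38. For Cdkn1a the nearest were less close, Ccdc120 (0.70), Nid1 (0.78) and Abcb1a (0.80), against 2.02. Cdkn1c was nearest to Tspan15 (0.43), Ptprs (0.56) and Sdk1 (0.57), against 1.18.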

How the data were processed

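The authors deposited 1 table of raw read counts per gene for each of 20 libraries, whole numbers with no normalisation. Per the design text, RNA with an integrity number above 8 went into TruSeq libraries read paired-end. The same text names FastQC 0.11.5 for read quality, fastp 0.20.0 for trimming and mm10 as the genome, with uniquely mapped reads counted. The submitters' processing notes name Trimmomatic 0.36 in place of fastp. The aligner, counter, strand setting and annotation release are not given in the sources used here. Symbols, exon lengths and coordinates came from GENCODE M21 (mm10), which matched 46005 of 46603 identifiers.

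Counts were fitted with edgeR 4.0.16 (TMM, filterByExpr on 4 groups, quasi-likelihood test) in R 4.3.3, over all 20 libraries with 4 group means, and with 8 means of genotype and time for 40 h and 48 h. P-values were adjusted over all 14661 tested genes. SE is the log2 change divided by the root of its F statistic. Levels per kb use merged exons, with the longest transcript as an alternative. DESeq2 1.42.0, limma 3.58.1 (voom), other scalings and filters, left-out libraries, a time term and a replicate block were alternatives. Floors cover counting error only.

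The 7 members, the gene lists and the rule for named genes (all members, their direct partners, up to 4 called genes per list, neighbours within 500 kb and the 3 nearest profiles) were chosen with earlier results of these data known. Pairing by mouse rests on labels that tie both samples to 1 animal; 9 mice have a number in both titles, and WT baseline replicate 1 has none. Residual correlations over 12539 genes ran from -0.09 to 0.19 within a mouse and from -0.25 to 0.30 between different mice. Libraries of a group come from different mice by the labels, and p-values measure the spread between them. Leaving out the 30 h libraries was chosen after seeing the data.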

Additional observations from a re-analysis of the deposited data

Results flagged for a closer look

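In KO after PHx, replicate 10 (40 h) had 64.7 CPM of Cdkn2c, and the next library had 7.31 CPM, a gap of 0.92 of the group's whole range. The same library had 20.5 CPM of Cdkn2d against 2.81 CPM in the next, a gap of 0.94. Both pass Dixon's critical value of 0.71 for 5 samples. In all, 28 groups (7 genes in 4 groups) were examined, and chance flags about 1 in 20. The summed G2 and M genes of that library were 1094.8 CPM, and those of the other 4 were 17.8 to 143.6 CPM. Whether the high Cdkn2c and Cdkn2d go with cells in these phases was not tested.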

How the results depend on the processing

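The baseline calls of Cdkn2a, Cdkn2b, Cdkn1a and Cdkn1c, the calls of Cdkn2a, Cdkn2b and Cdkn1c after PHx, and the Cdkn1a responses held in every alternative run for them, left-out libraries included. Of 439 log2 values of members under settings other than left-out libraries, 401 kept direction and side of the threshold. Library size alone as the scaling brought the median of all genes from -0.03 to 0.45 at baseline, from -0.01 to 0.37 after PHx, from 0.04 to 0.40 for the WT response, from 0.10 to 0.37 in KO, from 0.04 to 0.55 at 40 h and from -0.02 to 0.41 at 48 h. It gave 3634 called genes at baseline and 3112 at 40 h, 2 members called higher in the WT response (also 2 with DESeq2, the second being Cdkn2c) and 0 called lower at 48 h. It reversed uncalled values of Cdkn1b (0.38 at baseline, 0.12 after PHx, 0.26 for the WT response), Cdkn2c after PHx (0.12), Cdkn2d in the difference of responses (-0.15), and Cdkn1a at 40 h (0.57), and the call of Rbl2 at baseline was lost (0.01). With only the samples compared, 5242 genes were called at baseline, 1345 after PHx, 2878 for the KO response, 40 at 40 h (1 member) and 0 at 48 h (0 members). DESeq2 called 365 genes in the difference of responses and 3015 at 40 h. limma-voom called 16 genes in the difference and 0 members lower at 48 h, and turned Cdkn2c (-0.54) and Cdkn1c (-0.22) in the KO response and Cdkn1a at 40 h (0.12). A time term gave 90 genes in the difference, -0.17 for Cdkn1c in KO and -0.29 for Cdkn2d in the difference. Leaving out the 30 h libraries, chosen after seeing the data, also gave 90 genes in the difference, and 0.44 for Cdkn2c after PHx. The cause of each of these shifts was not tested.

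As a fixed term the replicate block by mouse changed no call of a member. It gave 7 genes called in the difference (3 with WT baseline replicate 1 taken as mouse 1). As a random effect in limma-voom it gave 17, with 0 members lower at 48 h, close to limma-voom without it. Uncalled values turned in the KO response for Cdkn2c (-0.71, -0.70 and -0.54 in these 3 paired fits) and Cdkn1c (-0.18, -0.18 and -0.22), for Cdkn1b in the difference (0.05 and 0.00) and for Cdkn1a at 40 h (0.10).

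With 1 library left out, genes called ranged from 220 (without WT replicate 2) to 2583 at 40 h (618 without KO replicate 11), from 2084 (without KO replicate 7) to 4525 at 48 h (2147 without WT replicate 5) and from 22 to 708 (without KO replicate 10) in the difference; the libraries named are from after PHx. Members called higher ranged from 1 to 2 in each response, members lower from 0 to 1 after PHx and from 0 to 3 at 48 h. Ranges that crossed 0 were, for Cdkn2c, -2.10 to 0.86 after PHx, -4.33 to 1.00 at 48 h and -1.18 to 1.12 in the KO response; for Cdkn2d, -0.80 to 1.36 after PHx, -2.48 to 1.48 at 48 h and -1.25 to 0.85 in the difference; for Cdkn1a, -0.64 to 1.02 at 40 h. For Cdkn1b they were -0.39 to 0.15 after PHx, -0.23 to 0.46 at 40 h, -1.35 to 0.80 at 48 h, -0.41 to 0.13 in the WT response and -0.36 to 0.18 in the difference. In the KO response they were -0.34 to 0.36 for Cdkn1c and -0.06 to 0.21 for Cdkn2a. With the longest transcript as the length, 4 of 28 places in the order of levels moved, Cdkn1a (1) and Cdkn1b (2) in WT at baseline and Cdkn2d (5) and Cdkn1b (6) in KO after PHx. Scaling by library size alone moved 5 of 28 mean levels by more than 1 SD: in WT at baseline Cdkn2c (2.53 CPM), Cdkn2d (1.17), Cdkn1b (16.7) and Cdkn1c (0.662), and in KO after PHx Cdkn2a (10.5). In WT the few reads of Cdkn2a, 4 at baseline and 20 after PHx, limit its fold changes.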
